A study of Homo sapiens with 4 samples.

Results

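The proteasome is described here through the genes of its subunits, chosen by symbol alone: all rows whose symbol is PSM, a letter from A to G and a number. This gave 48 genes of the 26255 in the deposited files, and 46 of them reached the minimum for testing, a mean of 1 FPKM over the 4 libraries. FPKM is fragments per kilobase of transcript, scaled to library size. The other members, PSMA8 of the testis proteasome and PSMB11 of the thymus proteasome, were listed at 0 in all 4 libraries. PSMB8, PSMB9, PSMB10, PSME1 and PSME2 are called the immune members below, and the remaining 43 the other subunits, of which 41 were tested.

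RNA was sequenced from MRC5 cells, an established human line of normal fetal lung fibroblasts, wild type by label. The 2 control libraries are labelled as having no treatment and the 2 miRs libraries as treated with miRs, that is microRNAs, whose names are not given in the labels; every title carries 48 h. The series title speaks of NC-miR against miRs, so whether the control cells had a control microRNA cannot be told from the labels. The labels do not say whether replicates came from separate cultures. The p-values therefore reflect library-to-library spread only, in limma partly shared over all genes, and that spread may be technical.

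The proteasome degrades proteins marked with ubiquitin. Its core is a barrel of alpha and beta rings, and 3 of the beta subunits cut: PSMB6, PSMB7 and PSMB5, with caspase-like, trypsin-like and chymotrypsin-like activity. In immune cells, and in other cells exposed to interferon, PSMB9, PSMB10 and PSMB8 are built into new cores in place of PSMB6, PSMB7 and PSMB5. PSME1 and PSME2 together form PA28, an activator that caps the core, and the immune form is known for making peptides for MHC class I. The 19S cap, with ATPases in its base and a lid that removes ubiquitin, feeds proteins into the core.

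All 10 fibroblast markers examined were expressed, with summed levels of 12977 and 12083 FPKM in controls 1 and 2 and of 8330 and 12880 FPKM in miRs replicates 1 and 2. The lowest sum was thus in miRs replicate 1, but the sums hide members that went different ways. VIM, DCN, LUM, THY1 and FN1 were below both controls in both miRs libraries. COL1A1, COL1A2 and COL3A1 were below both controls in miRs replicate 1 and above both in miRs replicate 2. For COL1A1 the values were 2337 and 2521 FPKM in controls against 1910 and 4742 FPKM in miRs. PDGFRA and PDGFRB were below both controls in miRs replicate 1 and between them in miRs replicate 2. Of 14 leukocyte markers, 11 were under 0.2 FPKM in every library, among them PTPRC (the CD45 antigen of leukocytes), CD3E and MS4A1. The leukocyte list summed to 58.4 and 63.9 FPKM in controls 1 and 2 and to 136 and 46.1 FPKM in miRs replicates 1 and 2, nearly all of it CD68, a lysosomal protein found chiefly in macrophages; 5 of the 14, CD3E and MS4A1 among them, were at 0 throughout. Of 5 epithelial markers, KRT8, KRT18 and KRT19 averaged 1 FPKM or more across libraries, and EPCAM had 0 and 0.228 FPKM in controls 1 and 2 and 1.07 and 1.61 FPKM in miRs replicates 1 and 2. The epithelial list summed to 28.3 and 30.8 FPKM in controls 1 and 2 and to 182 and 261 FPKM in miRs replicates 1 and 2, while CDH1 stayed under 0.2 FPKM. Of 5 endothelial markers only TEK averaged 1 FPKM or more. The epithelial keratins were thus highest in miRs replicate 2 and most proteasome members in miRs replicate 1; the part of these marker lists in the results below was not tested. The absolute number of reads is unknown. Steps between low values put the worth of 1 fragment at 1.05, 0.896 and 1.02 times that of control replicate 1 in control replicate 2, miRs replicate 1 and miRs replicate 2. The miRs libraries differed from each other across the proteasome. Of the 46 tested members, 41 were higher in miRs replicate 1 than in miRs replicate 2, as were 6055 of the 11860 tested genes. The highest value of all 4 libraries was in miRs replicate 1 for 38 members, and for 33.7% of all tested genes. The median gap between these libraries was 0.43 on the log2(FPKM + 1) scale for the members and 0.01 for all tested genes. Results are therefore given for each library.

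Setting miRs against control shows how far each proteasome transcript differs 48 h into the experiment. All 5 immune members had a higher mean in miRs, from 1.42-fold for PSMB10 to 8.93-fold for PSMB9, while the 3 standard catalytic subunits lay between 0.865-fold and 1.32-fold. In each immune member most of the difference came from miRs replicate 1. None of the 46 members passed an adjusted p of 0.05 in limma, where 0.101% of the 11860 tested genes passed with a higher and 0.143% with a lower level in miRs. At an unadjusted p under 0.05 there were 3 members, all higher: PSMG1, PSMG4 and PSMB8 (11.2% of all tested genes higher, 13.0% lower).

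PSMB9, the immune counterpart of PSMB6, had 5.14 and 9.18 FPKM in controls 1 and 2, and in miRs replicates 1 and 2 it had 113 and 14.9 FPKM. Values of the following genes are given in the same order. Both miRs libraries lay above both controls, by 15.8-fold and 2.09-fold over the control mean. Its log2 difference was 2.43 ± 0.97 (SE, n = 2 each), with an adjusted p of 0.224 in limma. In the controls PSMB9 had the lowest mean FPKM of the 46 tested members, and it was also the lowest in miRs replicate 2, whereas in miRs replicate 1 it ranked 22.

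PSMB8, which replaces PSMB5, was at 27.4 and 33.2 FPKM in controls, against 153 and 48.6 FPKM in the miRs libraries. The groups did not overlap, and the miRs libraries lay 5.05-fold and 1.61-fold over the control mean. The log2 difference was 1.49 ± 0.56 (SE, n = 2 each; adjusted p = 0.204 in limma). PSMB8-AS1, named as antisense to PSMB8, was at 0.769 and 0.971 FPKM in controls, against 3.56 and 1.58 FPKM in miRs cells. The strand setting of the counting is not given in the sources used here, so reads of such partners cannot be told apart.

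PSMB10, which replaces PSMB7, was at 20.6 and 22.6 FPKM in controls, against 41.9 and 19.6 FPKM in miRs cells. Only miRs replicate 1 lay above the controls; miRs replicate 2 lay below both. The log2 difference was 0.39 ± 0.37 (SE, n = 2 each; adjusted p = 0.549 in limma), and it was −0.13 without miRs replicate 1.

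PSME2, the beta subunit of PA28, was at 113 and 101 FPKM in controls, against 391 and 137 FPKM in miRs cells, with no overlap. It ranked 15 among the members by control mean and had the highest FPKM of all members in miRs replicate 1. Its log2 difference was 1.11 ± 0.51 (adjusted p = 0.271 in limma). PSME1, the alpha subunit of PA28, was at 75.7 and 99.9 FPKM in controls, against 216 and 102 FPKM in miRs cells. Here miRs replicate 2 was barely above control replicate 2, and the log2 difference was 0.76 ± 0.40 (adjusted p = 0.310). PSME2 has 2 pseudogenes named for it in GENCODE 29, so its level carries some uncertainty. In all, 10 of the 48 members have at least 1 such pseudogene.

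**Figure D1:**
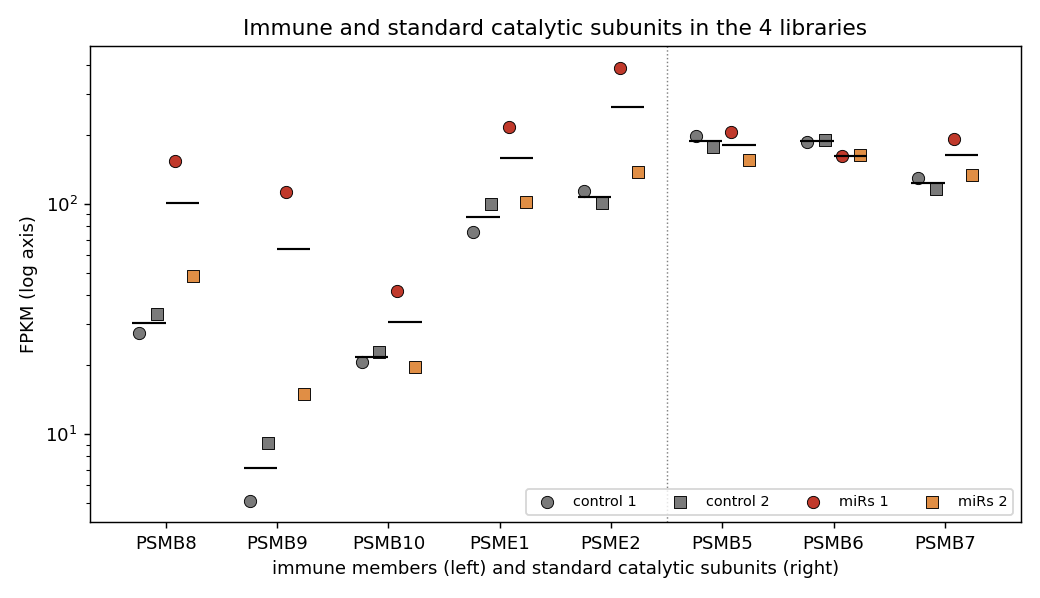
FPKM (log axis) of the 5 immune members and the 3 standard catalytic subunits; each point is 1 library, with circles for replicate 1 and squares for replicate 2, and short lines are group means. In all 5 immune members the highest point is miRs replicate 1, and in PSMB10 miRs replicate 2 lies below both controls.

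Of the 5 immune members, 4 had no miRs value below a control value, as did 14 of the 41 tested other subunits and 29.5% of all tested genes. The immune members had a median log2 difference of 1.11, the other subunits of 0.13 and all tested genes of −0.002. The immune median exceeded that of the other subunits by 0.98; against the control mean this excess came to 1.54 for miRs replicate 1 and 0.44 for the other miRs library. The sign was thus the same in both libraries, and the size was not.

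Each immune catalytic subunit takes the seat of a standard one, so their transcripts can be set against each other in each library, on the length-corrected FPKM scale. PSMB8, PSMB9 and PSMB10 made up 9.40% and 11.9% of the summed FPKM of the 6 catalytic subunits in the controls, and 35.5% and 15.6% in miRs. Both miRs libraries were above both controls; an exact 2-sided permutation test gave p = 0.333, the smallest that 2 against 2 libraries allow. Summed levels of the immune trio were 53.1 and 65.0 FPKM in control cells against 308 and 83.1 FPKM in miRs cells. The standard trio summed to 512 and 482 FPKM in control cells against 558 and 450 FPKM in miRs cells, so its miRs values lay on either side of the control values.

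Of the 3 pairs, 2 did not overlap between the groups, with the higher ratios in miRs. Among single genes, 29.5% of all tested did not overlap with a higher level and 30.0% with a lower one. Such a share was not computed for ratios. The ratio of PSMB9 to PSMB6 was 0.0277 and 0.0485 in the controls and 0.698 and 0.0921 in miRs. The ratio of PSMB8 to PSMB5 was 0.139 and 0.188 in the controls and 0.745 and 0.315 in miRs. For both of these pairs the groups did not overlap (exact permutation p = 0.333). The ratio of PSMB10 to PSMB7 was 0.159 and 0.195 in the controls and 0.219 and 0.147 in miRs, with overlapping groups (exact permutation p = 1). In every library the standard transcript stayed above its immune partner, by at least 1.34-fold for PSMB5 over PSMB8 and 1.43-fold for PSMB6 over PSMB9, both in miRs replicate 1.

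**Figure D2:**
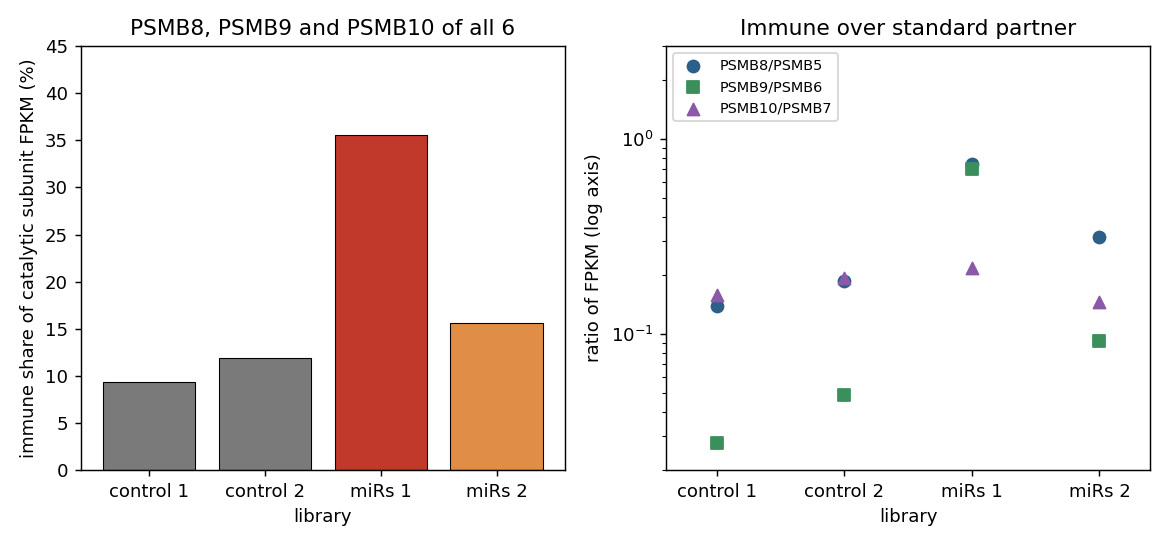
Left, the share (%) of the summed FPKM of 6 catalytic subunits that belongs to PSMB8, PSMB9 and PSMB10, with 1 bar per library. Right, the FPKM ratio of each immune subunit to its standard partner (log axis), with 1 point per pair and library; the PSMB9 and PSMB8 ratios are highest in miRs replicate 1, at 0.698 and 0.745, and PSMB10 over PSMB7 stays between 0.147 and 0.219.

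Since the immune members are known interferon targets, the stretches around their start sites are shown for the letters GAAANNGAA, searched on both strands, which resemble the element bound by IRF and ISGF3 factors. RefSeq promoter windows (GRCh38.p14, 250 bases before to 50 after each start) were matched by symbol for 42 of the 48 members, 51 windows in all. The letters were in 4 of the 5 immune members and in 4 of 37 other subunits (PSMA4, PSMB4, PSMC2 and PSMG4), while 8.11% of all 35116 windows of that length, and 9.86% of the genes with a window, held them. In the 4 immune members the match was GAAAGCGAA each time. A search for these exact letters, chosen after the matches were seen, found them in 94 of all windows (0.268%); among the other subunits PSMG4, an assembly chaperone, held them. Below are 80 bases before to 30 bases from each start, 5′ to 3′ on the gene's strand, with the match in capitals (TTCGCTTTC is the same element on the opposite strand).

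PSMB8 (downstream of 2 RefSeq starts, chr6:32844018-32844127, minus strand): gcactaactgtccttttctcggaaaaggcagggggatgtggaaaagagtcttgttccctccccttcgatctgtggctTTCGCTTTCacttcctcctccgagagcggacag
PSMB10 (chr16:67936821-67936930, minus strand): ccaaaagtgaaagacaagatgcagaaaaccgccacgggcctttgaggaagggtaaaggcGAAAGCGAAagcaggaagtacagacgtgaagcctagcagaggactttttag
PSME1 (chr14:24136114-24136223, plus strand): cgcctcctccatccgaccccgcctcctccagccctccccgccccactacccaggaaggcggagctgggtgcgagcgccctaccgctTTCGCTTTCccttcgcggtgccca
PSME2 (chr14:24146581-24146690, minus strand): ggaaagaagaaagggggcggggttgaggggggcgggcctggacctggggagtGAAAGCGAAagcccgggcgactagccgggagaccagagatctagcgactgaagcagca
PSMG4 (chr6:3258867-3258976, plus strand): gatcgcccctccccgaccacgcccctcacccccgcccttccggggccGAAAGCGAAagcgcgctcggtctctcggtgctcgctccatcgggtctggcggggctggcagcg
PSMB9 (no match, chr6:32854112-32854221, plus strand): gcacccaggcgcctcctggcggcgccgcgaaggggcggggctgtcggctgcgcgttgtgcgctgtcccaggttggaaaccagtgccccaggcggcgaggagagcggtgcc

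In all 5 genes the match lay within 33 bases before to 15 bases after the start, counting the start as base 1. PSMB9, with the largest difference of all members, had no match in its window, which says only that these letters are not there. The upstream start of PSMB8 had none either. The letters TTCNNNGAA, which read the same on both strands and resemble the element bound by STAT dimers, were in 1 of 5 immune members (PSMB8) and 7 of 37 other subunits, against 7.66% of all windows and 9.38% of genes. The letters TGACNNNGC, which resemble the element bound by NFE2L1, a factor that drives proteasome genes when the proteasome is impaired, were in 3 of 5 immune members and 12 of 37 other subunits, against 13.3% of all windows and 16.1% of genes. A TTCNNNGAA and a GAAANNGAA match can share letters.

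**Figure D3:**
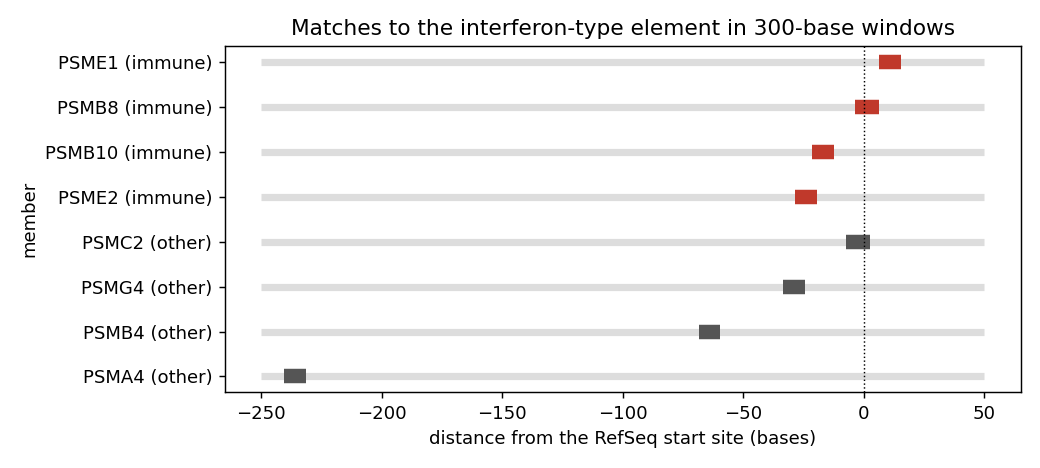
Position of each GAAANNGAA match (bars, in bases from the RefSeq start site) in the 300-base windows (grey) of 4 immune members (red) and 4 other subunits (dark grey). The 4 red bars lie between base −28 and base 15, and of the dark bars that of PSMA4 lies farthest from the start, at −240 to −232.

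PSMB8 and PSMB9 lie beside TAP1 and TAP2, the peptide transporter, in the order TAP2, PSMB8, TAP1, PSMB9 among RefSeq coding genes of chromosome 6. TAP1 was at 17.9 and 16.6 FPKM in control cells against 179 and 41.0 FPKM in miRs cells (log2 difference 2.25, adjusted p = 0.160 in limma). TAP2 was at 15.1 and 15.6 against 86.3 and 25.2 FPKM (log2 difference 1.55, adjusted p = 0.206). Both transporter genes were thus highest in miRs replicate 1 and above the controls in both miRs libraries, like PSMB8 and PSMB9. PSME1 and PSME2 lie on chromosome 14 with EMC9 between them, and IRF9, the DNA-binding part of ISGF3, lies 2 coding genes beyond PSME2.

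Of 17 genes for peptide loading and presentation, 10 had both miRs values above the control values and 0 had both below (29.5% and 30.0% of all tested genes). None passed over all genes in limma. At an unadjusted p under 0.05 there were 3, all higher (11.2% of all tested genes higher, 13.0% lower). NLRC5, which drives transcription of MHC class I genes, was at 3.68 and 4.71 FPKM in control cells against 16.7 and 8.04 FPKM in miRs cells (adjusted p = 0.136). HLA-C, whose level is uncertain because its relatives are alike in sequence, was at 273 and 276 against 1053 and 391 FPKM (adjusted p = 0.221). Among 7 transcription factors of interferon signalling, IRF8 was listed at 0 in all libraries. For the 6 tested each miRs library lay above each control, as for 29.5% of all tested genes. In limma 5 had an unadjusted p under 0.05, all higher, as did 11.2% of all tested genes. None had an adjusted p under 0.05. STAT2, a part of ISGF3, was at 22.4 and 28.8 FPKM in control cells against 74.6 and 49.8 FPKM in miRs cells (adjusted p = 0.0940). IRF9 was at 15.9 and 22.1 against 58.6 and 45.8 FPKM (adjusted p = 0.0769), and IRF7 at 1.25 and 2.75 against 59.4 and 31.9 FPKM (adjusted p = 0.0632). In STAT2, IRF7 and IRF9, as in the immune members, the first miRs library had the higher value. The same held for 6055 of the 11860 tested genes. On the log2(FPKM + 1) scale the median gap between the miRs libraries was 0.68 for the 6 tested factors and 1.51 for the immune members. In miRs replicate 2 the median difference from the control mean was 1.09 for these factors and 0.35 for the immune members. The sizes thus differed between the 2 lists. The part of these factors in the levels of the immune members was not tested.

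The standard catalytic subunits lay on both sides of the controls. PSMB5 was at 197 and 176 FPKM in controls, against 205 and 154 FPKM in miRs cells, with overlapping groups (log2 difference −0.07 ± 0.19, SE, n = 2 each; adjusted p = 0.847 in limma). PSMB6 was at 186 and 189 FPKM in controls, against 162 and 162 FPKM in miRs cells. It was lower in both miRs libraries by nearly the same amount (−0.21 ± 0.12, adjusted p = 0.340). PSMB7 was at 129 and 116 FPKM in controls, against 191 and 134 FPKM in miRs cells, higher in both (0.38 ± 0.21, adjusted p = 0.339). PSMB6 was among the 5 of 46 members that were not higher in miRs replicate 1 than in miRs replicate 2.

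The beta subunits that do not cut, PSMB1, PSMB2, PSMB3 and PSMB4, had a median log2 difference of 0.01. PSMB4, the most abundant member by control mean, was at 277 and 269 FPKM in controls, against 249 and 258 FPKM in miRs cells (log2 difference −0.11, adjusted p = 0.614 in limma). PSMB3 was at 165 and 148 against 188 and 141 FPKM (0.06, adjusted p = 0.866). Above both controls were 3 of these 4 in miRs replicate 1 (44.1% of all tested genes) and none in miRs replicate 2 (42.7%). In miRs replicate 2 all 4 were below both controls, as were 5056 of the 11860 tested genes.

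The tails of the alpha ring form the gate of the core. All 7 alpha genes had a higher mean log2 level in miRs, and all 7 had their highest value in miRs replicate 1, as did 33.7% of all tested genes. Their median difference from the control mean was 0.66 for miRs replicate 1 and 0.07 for the other. PSMA6 was at 117 and 119 FPKM in controls, against 259 and 132 FPKM in miRs cells (0.64 ± 0.34, adjusted p = 0.317 in limma). PSMA7 was at 240 and 216 against 241 and 217 FPKM (0.008 ± 0.14, adjusted p = 0.977). In 4 of the 7 both miRs libraries lay above both controls, against 29.5% of all tested genes. Though the ring holds each alpha subunit in equal number, control means ran from 24.2 FPKM for PSMA5 to 228 FPKM for PSMA7. PSMA6 has 4 named pseudogenes and PSMA2 has 3, which makes their levels uncertain.

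**Figure D4:**
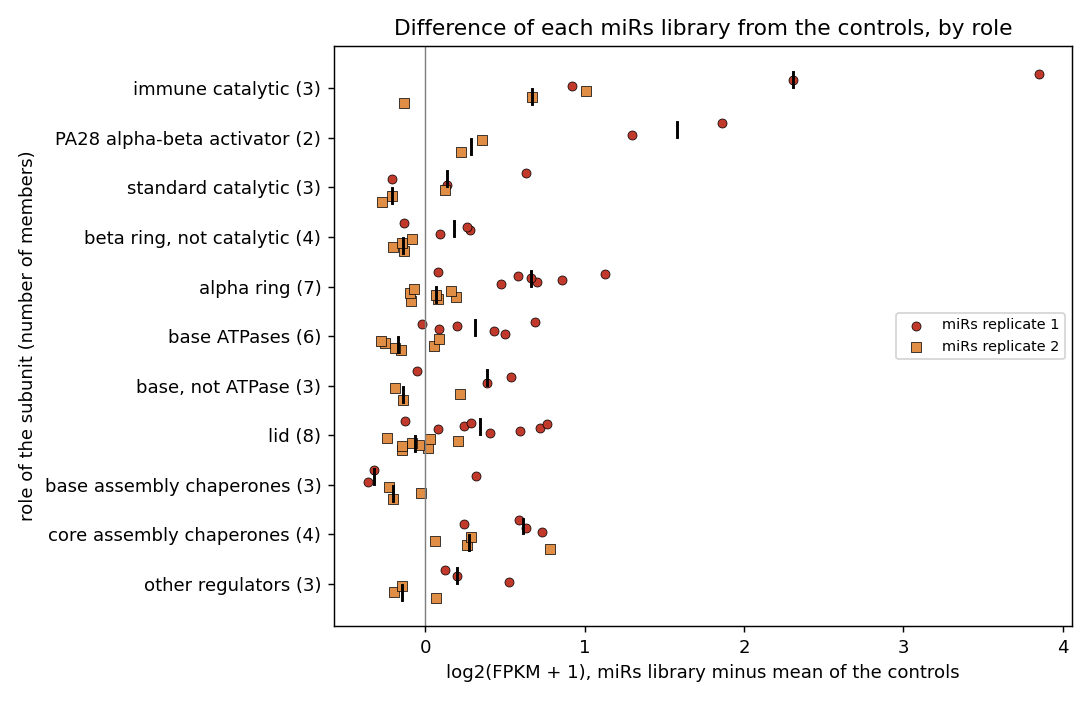
Difference of each miRs library from the mean of the controls on the log2(FPKM + 1) scale for the 46 tested members, by role; circles are miRs replicate 1, squares miRs replicate 2, and bars are medians. In miRs replicate 1 the median is 2.31 for the immune catalytic subunits, 1.58 for PA28 and 0.66 for the alpha ring, and in miRs replicate 2 it is 0.67, 0.29 and 0.07.

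In the 19S base, the 6 ATPases PSMC1 to PSMC6, which unfold substrates, had a median log2 difference of 0.10. PSMC6 was at 47.3 and 41.5 FPKM in controls, against 72.2 and 47.1 FPKM in miRs cells (0.39, adjusted p = 0.377 in limma), and PSMC5 at 116 and 114 against 113 and 94.6 FPKM (−0.15, adjusted p = 0.563). All 6 were higher in miRs replicate 1 than in miRs replicate 2, as were 6055 of the 11860 tested genes. PSMC1 alone has 13 named pseudogenes. Of the base subunits without ATPase activity, the scaffold PSMD2 was at 241 and 184 against 306 and 245 FPKM (0.38, adjusted p = 0.325). The ubiquitin receptor PSMD4 was at 129 and 124 against 122 and 111 FPKM (−0.12, adjusted p = 0.598), lower in both miRs libraries.

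The 8 lid subunits had a median log2 difference of 0.15. PSMD6 was at 56.4 and 52.8 FPKM in controls, against 93.2 and 63.2 FPKM in miRs cells (0.48, adjusted p = 0.262 in limma), with no overlap. PSMD8 was at 142 and 140 against 129 and 119 FPKM (−0.18, adjusted p = 0.412), lower in both. The lid therefore held members on both sides of the controls, as the base and the beta ring did.

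PSMG1 to PSMG4 help to assemble the core, and for all 4 each miRs library lay above each control, as for 29.5% of all tested genes. PSMG1 was at 23.8 and 23.3 FPKM in controls, against 39.8 and 41.1 FPKM in miRs cells, a 1.72-fold difference that was alike in both miRs libraries. Its log2 difference was 0.76 ± 0.12 (SE, n = 2 each), and its adjusted p of 0.0769 in limma was the lowest of the members. PSMG4 was at 13.7 and 13.7 against 21.1 and 16.9 FPKM (0.44 ± 0.16, adjusted p = 0.191). PSMG2, the partner of PSMG1, was at 25.8 and 31.6 against 44.9 and 34.6 FPKM (0.45, adjusted p = 0.245); it was named after its value was seen. PSMG3, the partner of PSMG4, was at 26.0 and 26.6 against 31.3 and 27.5 FPKM (0.15, adjusted p = 0.514).

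PSMD5, PSMD9 and PSMD10 are chaperones of the 19S base. PSMD10, also called gankyrin, was at 34.8 and 33.5 FPKM in controls, against 26.4 and 29.6 FPKM in miRs cells (−0.28 ± 0.13, adjusted p = 0.272 in limma). PSMD10 has 3 named pseudogenes, so its level is uncertain too. PSMD5 was at 17.4 and 18.1 against 22.4 and 17.4 FPKM (0.15, adjusted p = 0.615). Of the 3, PSMD9 and PSMD10 had both miRs values below the control values. In all, 7 members were lower in this way, against 30.0% of all tested genes, and all 7 were other subunits.

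Among the remaining regulators, PSME3, the nuclear relative of PSME1 and PSME2, was at 47.2 and 45.6 FPKM in controls, against 67.1 and 48.7 FPKM in miRs cells (0.30, adjusted p = 0.394 in limma). PSMF1, known as the inhibitor PI31, was at 26.2 and 25.9 against 28.5 and 23.5 FPKM (−0.008, adjusted p = 0.979).

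**Figure D5:**
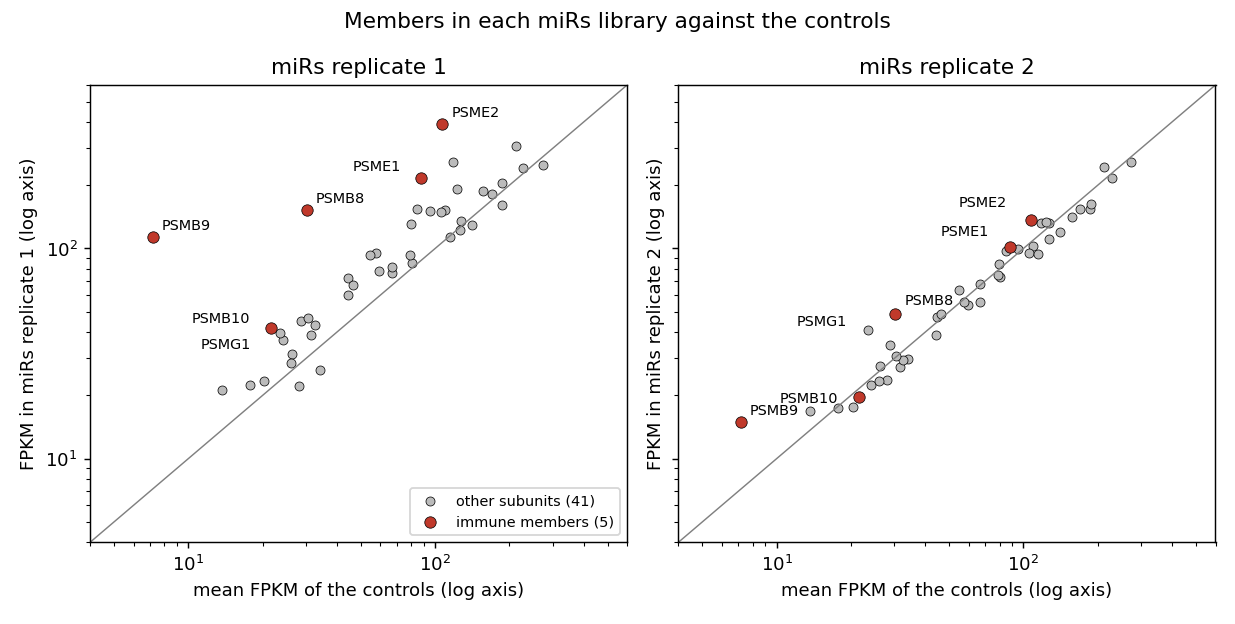
FPKM of the 46 tested members in miRs replicate 1 (left) and miRs replicate 2 (right) against the mean of the controls, on log axes with the line of equality; red points are the 5 immune members. On the left 39 of 46 members lie above both controls, and on the right 18 do.

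Above both controls were 39 of the 46 members in miRs replicate 1 (44.1% of all tested genes) and 18 in miRs replicate 2 (42.7%). The calls followed the same division. Without miRs replicate 2, 23 members passed an adjusted p of 0.05 in limma, all higher, where 16.0% of all tested genes passed with a higher level. These 23 were the 5 immune members and 18 other subunits, among them 6 of 7 alpha genes and 3 of 6 ATPases. Without miRs replicate 1, 2 members passed, PSMB8 (log2 difference 0.67, adjusted p = 0.0347) and PSMG1 (0.78, adjusted p = 0.0117), both higher, where 8.43% of all tested genes did. In each of these fits the lone miRs library is assumed to vary like the controls. In bulk RNA, fewer cells of a type and less RNA per cell cannot be told apart.

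Of 24 proteasome factors outside the subunit symbols, 5 were higher and 5 lower in both miRs libraries, where 29.5% and 30.0% of all tested genes were. None passed over all genes in limma, and at an unadjusted p under 0.05 there were 2 higher and 1 lower, where 11.2% and 13.0% of all tested genes lay. ZFAND5, an activator of the 26S proteasome, was at 46.8 and 45.3 FPKM in controls, against 22.9 and 26.3 FPKM in miRs cells, lower in both by a similar amount (−0.88, adjusted p = 0.0763). UCHL5, a deubiquitinase of the 19S cap, was at 11.1 and 9.18 against 19.8 and 13.8 FPKM (0.66, adjusted p = 0.172). DDI2, the protease that activates NFE2L1, was at 2.90 and 3.22 against 4.43 and 5.53 FPKM (0.55, adjusted p = 0.151). UBQLN2, a shuttle for ubiquitylated proteins, was at 18.6 and 21.5 against 15.2 and 16.3 FPKM (−0.33, adjusted p = 0.242). POMP, the maturation factor of the core, named after its value was seen, was at 70.1 and 62.1 against 83.5 and 56.0 FPKM (0.05, adjusted p = 0.905).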

How the data were processed

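The authors deposited 1 file of FPKM per library, with a row for each gene symbol, per the file headers. Cuffdiff 2.2.1, TopHat2 2.1.1, SAMtools 0.1.18, Bowtie2 2.2.8 and the build hg19 are listed in the submitters' processing notes. For the annotation, the strand setting and the library scaling, the method is not given in the sources used here. Libraries came from a stranded poly(A) kit, per the labels' protocols. Groups follow the treatment label. The 4 files were joined on symbol, and genes at a mean of at least 1 FPKM were fitted together with limma 3.58.1 (R 4.3.3) on log2(FPKM + 1), with a variance trend, 2-sided, with Benjamini-Hochberg adjustment over all genes and 2 residual degrees of freedom. Each SE and p in limma rests on a variance drawn toward that of all genes, not on the gene's own libraries alone. Differences are miRs minus control. Shares and ratios used FPKM and an exact permutation test.

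Members, lists, motifs and alternatives were chosen with earlier results of these data known. Named are the immune and standard catalytic members, the largest and smallest difference in each other role, and up to 4 genes with the smallest p in each outside list. One gene that this rule names is not reported here. Alternatives were another pseudocount (0.1), no minimum or 5 FPKM, 2 rescalings, no variance trend, a replicate block, a threshold of 0.1 and each library left out. Replicate numbers were not taken as pairs, since no label ties them.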

Additional observations from a re-analysis of the deposited data

How the results depend on the processing

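All 39 genes named from the fit were recomputed under up to 11 alternatives, 428 values in all: 380 kept their direction and their side of the threshold, 36 passed where the reported fit did not, 0 did the reverse and 12, in 7 genes, changed direction. Calls over all genes numbered 29 as reported, 58 with no minimum FPKM, 99 with a replicate block and 854 at an adjusted p threshold of 0.1, and leaving out 1 library gave 0 to 3906. Members past the threshold numbered 0 as reported and with the replicate block, 1 (PSMG1) at a threshold of 0.1, and 0 to 23 when 1 library was left out. The replicate block changed the call of 1 named gene, IRF7 (adjusted p = 0.0488 in limma, against 0.0632 as reported and 0.00409 to 0.405 over its alternatives). Same-numbered libraries deviated together with r = 0.20 across genes; no label ties the numbers and there are only 2 of them, so they were not taken as pairs. The log2 ratio of PSMB10 to PSMB7 was −0.035 with quantile normalization and ranged from −0.26 to 0.31 with 1 library left out. Leaving out 1 library also changed the direction of PSMB10 (−0.13 to 0.92), PSMB5 (−0.27 to 0.14), PSMB3 (−0.15 to 0.26), PSMA7 (−0.068 to 0.085), PSMD5 (−0.024 to 0.32), PSMF1 (−0.14 to 0.13) and POMP (−0.23 to 0.34). The cause was not tested. The immune share of catalytic FPKM exceeded control by 4.95 to 24.9 percentage points, and the immune median that of other subunits by 0.44 to 1.54, with 1 library left out; the low ends came without miRs replicate 1. With 2 libraries a group, no exact p could go below 0.333.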

Other observations

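Genes named as antisense to a proteasome subunit did not all go with that subunit. Their positions were not examined. PSMB8-AS1, given above, was above both controls in both miRs libraries and highest in the first, like PSMB8. PSMD5-AS1 had 1.69 and 1.58 FPKM in controls, against 1.85 and 2.74 FPKM in miRs cells, highest in the second miRs library, whereas PSMD5 was highest in the first. PSMG3-AS1 had 1.57 and 1.26 FPKM in controls, against 0.682 and 1.14 FPKM in miRs cells, lower in both, whereas PSMG3 was higher in both. PSMA3-AS1 had 4.39 and 5.29 FPKM in controls, against 3.75 and 5.43 FPKM in miRs cells, with overlapping groups. PSMB8-AS1, PSMD5-AS1, PSMG3-AS1 and PSMA3-AS1 did not pass in limma (adjusted p = 0.201, 0.408, 0.393 and 0.846). PSMD6-AS2, at 0.245 and 0.331 FPKM in controls against 0.377 and 0.862 FPKM in miRs cells, was under the minimum for testing.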
